A study of Homo sapiens with 4 samples.

Results

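The axonemal and motile cilia genes, 69 in all, were followed in A549 cells, a human lung adenocarcinoma line, that carried either a guide against UHRF1 or a non-targeting guide. They are the protein-coding genes of the count table whose GENCODE 29 symbols begin with DNAH, DNAI, CFAP, RSPH or TEKT and a number, together with FOXJ1, MCIDAS, RFX2, RFX3, HYDIN, SPAG6, SPAG17 and ZMYND10. These rules took 69 of 58735 rows, of which 19951 are protein-coding: 13 DNAH, 33 CFAP, 8 RSPH, 5 TEKT and 2 DNAI genes and the 8 named singly.

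The study compared bulk RNA from 2 control libraries (non-targeting control, sgNTC) with 2 libraries labelled UHRF1 KO (sgUHRF1). Cells of both groups had received the lentiCRISPRv2-hygro vector by lentivirus and were selected in hygromycin. The sources used here do not say whether the cells were a pool or a clone, how long after selection they were harvested, or where in UHRF1 the guide cuts. Nor do they tie the libraries to separate cultures. The p-values therefore measure only how much these 4 libraries vary, and that variation may be technical. UHRF1 is the protein that brings the maintenance DNA methyltransferase DNMT1 to newly replicated DNA.

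Total counts were 18604598 and 19222886 in control and 20020366 and 23977168 in UHRF1 KO. Libraries of a group differed by more than counting noise, with a chi-square per degree of freedom of 2.65 in control and 1.85 in UHRF1 KO, so none is a repeat deposit of another. UHRF1 itself (chr19:4903080-4962154, GRCh38) had 1740 and 1834 counts in control and 811 and 1000 in UHRF1 KO. It fell from 98.1 ± 0.90 to 39.6 ± 0.79 CPM, which are counts scaled to a common library size (SD, n = 2), a log2 difference of -1.31 (SE 0.055, edgeR quasi-likelihood test, adjusted p = 3.94e-20). Transcript therefore remained in the libraries labelled UHRF1 KO, and RNA does not show how much protein did.

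A motile cilium is driven by its axoneme, a ring of doublet microtubules around a central pair. Outer and inner dynein arms on the doublets slide them against each other, radial spokes and the central pair regulate the arms, and proteins inside the doublet walls hold them together. Dynein arms are assembled in the cytoplasm by dedicated factors before they enter the cilium. In airway epithelium the genes are switched on in multiciliated cells by MCIDAS, FOXJ1 and the RFX factors, and many are also used, or have testis counterparts, in the sperm tail. A549 resembles alveolar cells, which carry no motile cilia.

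RFX factors bind the X-box, a motif common in promoters of cilia genes, and the core GTTGCC or its reverse complement GGCAAC was searched on both strands of RefSeq promoters (GRCh38.p14, 250 bases before to 50 after the gene start). Promoters were found for 58 of the 69 genes. Among the 15 members called at least 2-fold higher, those of DNAH17, DNAH3, FOXJ1 and CFAP54 were not matched and are not in the shares. The core stood in 28 of these 58 promoters (48.3%) against 12.4% of 14896 protein-coding promoters. It was present in 6 of the 11 matched promoters of members called at least 2-fold higher, in 9 of the 20 other members tested and in 13 of 27 of the members with too few counts to test. These shares describe letters in a window, and do not show that any factor was bound. Promoters of DNAH12, DNAH2 and CFAP45, which were at least 2-fold higher in UHRF1 KO, and of DNAH1, whose RNA was not called, are printed. Each holds more than 1 match, set in capitals. Promoters of RSPH14, which was not called, and of DNAI2, RSPH10B and RSPH10B2, which were not tested, also hold 2 matches each and are not printed.

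DNAH12, chr3:57544295-57544594, minus strand: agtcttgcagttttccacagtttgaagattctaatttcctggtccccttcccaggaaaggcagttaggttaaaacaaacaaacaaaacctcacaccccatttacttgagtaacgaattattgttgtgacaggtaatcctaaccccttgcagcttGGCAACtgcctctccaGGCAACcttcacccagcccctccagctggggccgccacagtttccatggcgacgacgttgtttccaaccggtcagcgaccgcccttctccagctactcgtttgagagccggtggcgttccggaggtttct

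DNAH2, chr17:7717494-7717793, plus strand: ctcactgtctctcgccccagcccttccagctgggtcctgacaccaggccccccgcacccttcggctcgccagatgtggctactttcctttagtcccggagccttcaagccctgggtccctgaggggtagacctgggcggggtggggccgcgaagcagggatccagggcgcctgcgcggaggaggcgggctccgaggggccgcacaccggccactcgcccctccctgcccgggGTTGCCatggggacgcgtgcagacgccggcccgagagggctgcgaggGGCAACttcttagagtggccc

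CFAP45, chr1:159900116-159900415, minus strand: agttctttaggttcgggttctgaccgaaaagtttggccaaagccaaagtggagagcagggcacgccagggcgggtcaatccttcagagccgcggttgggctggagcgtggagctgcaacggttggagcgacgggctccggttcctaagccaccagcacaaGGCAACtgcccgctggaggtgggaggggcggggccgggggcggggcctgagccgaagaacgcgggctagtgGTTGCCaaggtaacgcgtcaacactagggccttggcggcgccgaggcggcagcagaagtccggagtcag

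DNAH1, chr3:52316069-52316368, plus strand: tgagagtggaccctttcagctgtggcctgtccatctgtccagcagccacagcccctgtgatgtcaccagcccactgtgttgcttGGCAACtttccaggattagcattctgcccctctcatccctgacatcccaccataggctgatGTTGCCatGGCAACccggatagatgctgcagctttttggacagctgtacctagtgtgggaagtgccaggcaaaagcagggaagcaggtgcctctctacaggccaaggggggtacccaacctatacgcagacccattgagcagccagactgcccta

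In DNAH12 the matches begin 96 and 80 bases before the gene start. The DNAH2 matches begin 18 bases before and 29 bases after it, those of CFAP45 90 and 19 bases before it, and those of DNAH1 166, 105 and 97 bases before it. These starts are RefSeq's. For DNAH2 the whole window, from base 7717494, lies inside the GENCODE gene, which begins at 7717354. DNAH1 thus had 3 matches, of which 2 form an inverted repeat, while its RNA level did not pass the test. The promoters also differ in CG dinucleotides, the sites that UHRF1 helps keep methylated: 12 in DNAH12, 23 in DNAH2, 25 in CFAP45 and 2 in DNAH1. Over sets of genes the CG counts were close, with a median of 23 in the 11 promoters of members at least 2-fold higher, 22 in the 20 of other tested members, 22 in the 27 of untested members and 22 in all protein-coding promoters. DNA methylation was not measured in these files.

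Of the 69 genes, 39 had enough reads for the fit over all 17030 genes tested, and 17 of these 39 were higher in UHRF1 KO, 4 were lower and 18 were not called (adjusted p under 0.05, edgeR). Over all genes tested 32.0% were called higher and 30.1% lower, 62.0% in either direction. At least 2-fold higher were 15 of the 39, against 15.4% of all genes. A fall of that size was called in 1, against 2.54%. Both UHRF1 KO libraries lay above both controls, on the CPM scale, in 19 members and below in 7, where all genes gave 41.6% and 38.4%. Over all genes, 51.5% of calls were higher, but 63.4% with library totals as the scale and 28.5% when fold changes were recentred after length and GC trends were removed. The direction of calls also differed with the level in control. At or below 5 CPM in control, 43.5% of 6097 genes were called higher and 6.84% lower, and a change of 2-fold or more was called upward in 35.9% and downward in 3.92%. Of the 30 members at that level 16 were higher, 15 of them at least 2-fold, and 1 was lower, also at least 2-fold. Above 5 CPM, 25.5% of genes were called higher and 43.0% lower, with 3.91% and 1.77% at least 2-fold, and of the 9 members there 1 was higher, 3 were lower and none reached 2-fold.

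The low-count filter also bears on these counts. Of the 39, 6 (DNAH12, DNAH6, DNAH2, DNAI1, CFAP58 and FOXJ1) had no control library at the filter level of 0.510 CPM and were tested through the UHRF1 KO libraries, so they had to differ, and all 6 were at least 2-fold higher. ZMYND10, CFAP46 and RSPH14 reached it in control libraries alone. The other 30 reached it in both groups, and 11 of them were higher, 9 at least 2-fold. The share among all genes that reached it in both groups was not counted. The shares over all genes tested include genes that reached it in 1 group alone, and are not a like comparison. In bulk RNA, more cells that express a gene and more RNA of it per cell cannot be told apart.

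Summed over all 69 genes, the level was 261.1 and 261.5 CPM in control and 319.7 and 329.1 in UHRF1 KO. DNAH17 made most of that difference: without it the sums were 257.2 and 258.5 in control and 263.0 and 271.4 in UHRF1 KO. A read was seen for 54 and 52 of the 69 genes in control and for 59 and 65 in the more deeply sequenced UHRF1 KO libraries.

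**Figure D1:**
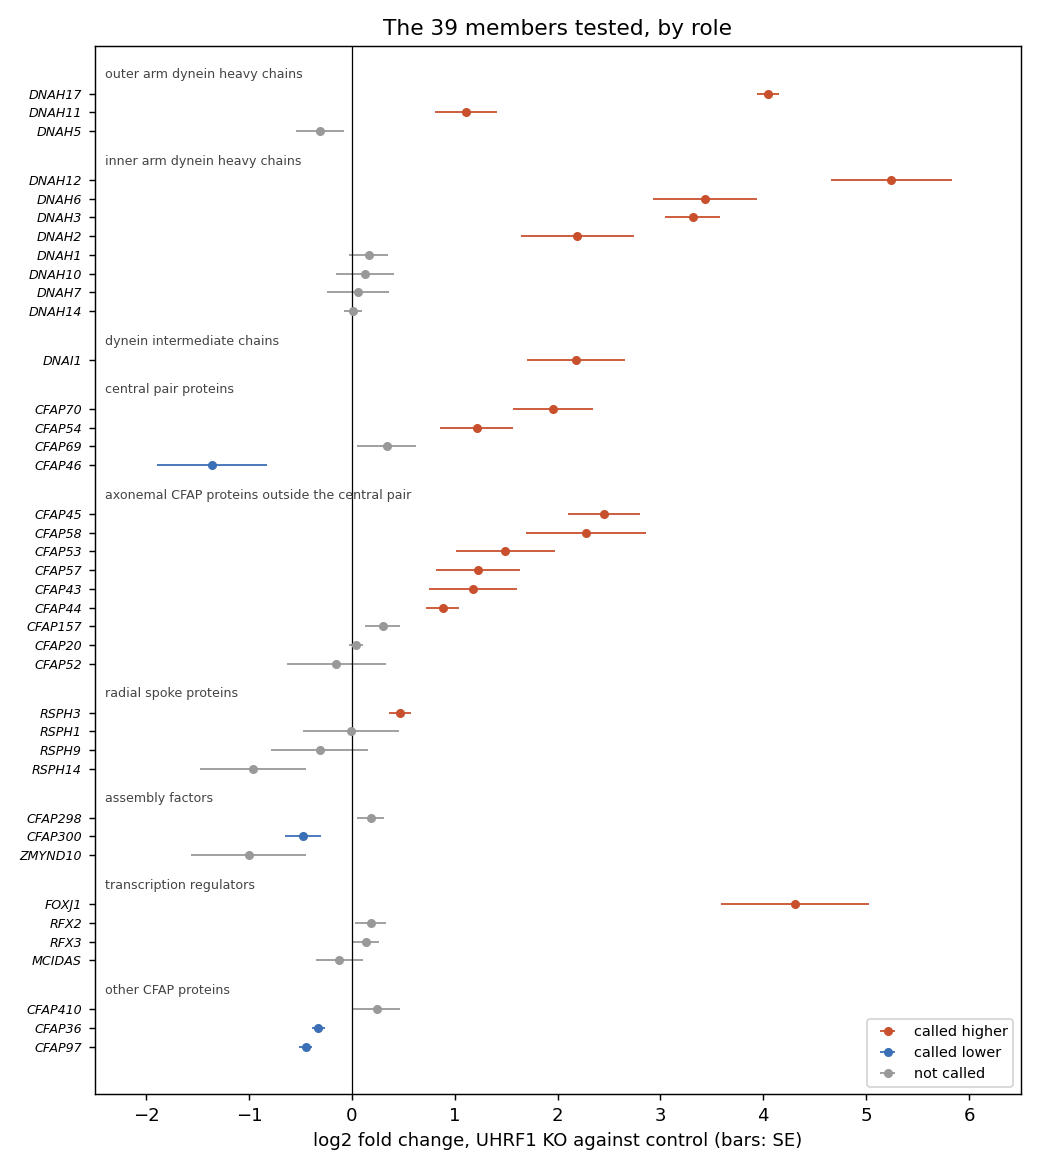
log2 fold change of UHRF1 KO against control for the 39 members tested, with bars of 1 SE from edgeR, grouped by role (2 libraries a group). Dynein heavy chains and axonemal CFAP genes hold most of the points above 1, DNAH12 is highest at 5.25, and CFAP46 is the lowest at -1.36.

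The dynein heavy chains are the motors of the arms, and 6 of the 11 tested were higher, all at least 2-fold, with none lower. All of the 11 but DNAH14 lay at or below 5 CPM in control. In that range 43.5% of all genes were higher, 35.9% at least 2-fold, and 6.84% were lower. Of the 6, DNAH12, DNAH6 and DNAH2 were tested through the UHRF1 KO libraries alone, so they had to differ. Together the 13 heavy chain genes gave 38.7 and 35.4 CPM in control and 105.4 and 105.0 in UHRF1 KO, or 34.8 and 32.3 against 48.8 and 47.3 without DNAH17. Among outer arm chains, 2 of 3 tested were higher. DNAH17 (chr17:78423697-78577394, minus strand), a heavy chain of the sperm tail, had 70 and 56 counts in control and 1177 and 1436 in UHRF1 KO. The groups lay far apart, at 3.47 ± 0.64 and 57.2 ± 0.71 CPM (SD, n = 2), a 16.5-fold difference (log2 fold change 4.05, SE 0.11, edgeR adjusted p = 7.51e-26). DNAH11 (chr7:21543215-21901839), an outer arm chain of airway cilia, had 20 and 21 counts in control and 54 and 57 in UHRF1 KO, without overlap. It was 2.16-fold higher (log2 fold change 1.11, SE 0.30, edgeR adjusted p = 0.00191), and it overlaps CDCA7L on the opposite strand, which fell. DNAH5, the chain most often mutated in primary ciliary dyskinesia, had 54 and 63 counts in control and 56 and 62 in UHRF1 KO, and its log2 fold change of -0.31 was not called (SE 0.23, edgeR adjusted p = 0.251). DNAH8, a sperm outer arm chain, had 0 counts in both controls and 8 and 16 in UHRF1 KO, which is at least 6.38-fold higher against a floor of 3 counts over both controls (0.0823 CPM). It did not reach the low-count filter. DNAH9, the airway partner of DNAH5, had 0 and 0 counts against 2 and 4, too few to test.

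Inner arm chains split evenly, with 4 of 8 higher and 4 not called. DNAH12 (chr3:57293699-57544344), a single-headed inner arm chain, had 1 count in each control and 52 and 53 in UHRF1 KO. Scaled for depth its counts were 41.9 times higher in UHRF1 KO, with a 95% counting interval of 11.3 to 350.4 that covers counting error only. The fitted log2 fold change was 5.25, with an SE of 0.59 (edgeR adjusted p = 2.60e-09). DNAH6 (chr2:84516455-84819589), another inner arm chain, had 6 and 1 counts in control and 51 and 46 in UHRF1 KO, without overlap. The fitted difference was 10.8-fold (log2 fold change 3.43, SE 0.50, edgeR adjusted p = 4.51e-07), and it ranged from 2.64 without control 2 to 5.17 without control 1. DNAH3 (chr16:20933111-21159441) was the most abundant of the inner arm chains that rose: 22 and 7 counts in control, 163 and 201 in UHRF1 KO. Control libraries differed among themselves, at 0.804 ± 0.60 CPM, but both stayed far under the UHRF1 KO level of 7.96 ± 0.16 CPM (SD, n = 2), which was 9.93-fold higher (log2 fold change 3.31, SE 0.27, edgeR adjusted p = 2.25e-12; 2.68 without control 2 and 4.38 without control 1). DNAH2 (chr17:7717354-7833744), which forms inner arm dynein f together with DNAH10, had 6 and 2 counts in control and 19 and 28 in UHRF1 KO. It was 4.57-fold higher (log2 fold change 2.19, SE 0.55, edgeR adjusted p = 8.80e-04; 1.59 without control 2 and 3.19 without control 1).

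Its partner DNAH10 was not called, with 28 and 40 counts against 43 and 50, and a fitted log2 difference of 0.13 (edgeR adjusted p = 0.716). Libraries of the groups overlapped on the CPM scale for DNAH10 and for the other chains that were not called, apart from DNAH5, where both UHRF1 KO libraries were lower. DNAH1 had 75 and 84 counts against 120 and 102 (log2 fold change 0.16, adjusted p = 0.472), and DNAH7 34 and 27 against 35 and 45 (0.06, adjusted p = 0.871, edgeR). DNAH14, grouped here with the inner arm chains, was the heavy chain of highest level in control and had 376 and 355 counts against 410 and 515. Its log2 fold change was 0.01 (edgeR adjusted p = 0.918), and it was called higher only after length and GC trends were removed (0.24, adjusted p = 0.0213).

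Per length (RPKM, the CPM divided by the exon length in kilobases), the order of the heavy chains differed between the groups. In control DNAH14 led at 1.02 RPKM, followed by DNAH1 at 0.314, DNAH17 at 0.215, DNAH5 at 0.195 and DNAH10 at 0.111, and DNAH17 and DNAH5 did not differ beyond their spread. In UHRF1 KO DNAH17 led at 3.55 RPKM, above DNAH14 at 1.03, DNAH3 at 0.532 and DNAH1 at 0.356. DNAH12, DNAH6, DNAH5 and DNAH11 followed within 0.153 to 0.175 RPKM, and DNAH12 had been at 0.00414 in control.

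**Figure D2:**
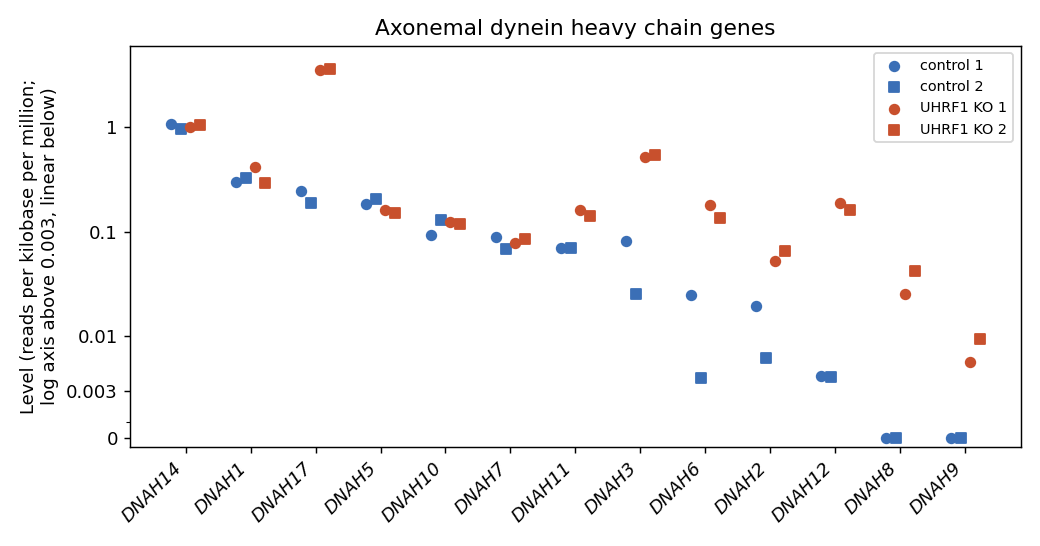
Level of the 13 dynein heavy chain genes in each library, in RPKM on an axis that is logarithmic above 0.003 and linear below, ordered by the control mean. DNAH17 stands at 3.55 in UHRF1 KO against 0.215 in control, while DNAH14 stays near 1.02 in both groups.

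DNAH17 was higher together with much of its surroundings. Of 13 tested genes within 250 kb of it, itself included, 11 were higher (8 at least 2-fold), BIRC5 was lower and TK1 was not called. Over all genes tested 32.0% were called higher, and 15.4% at least 2-fold higher. The 8 include DNAH17 itself and DNAH17-AS1. They also include LINC02081 and RN7SL236P, which had no control library at the low-count filter level and so had to differ to be tested. This window was looked at after the DNAH17 value was known. The antisense transcript DNAH17-AS1, which lies inside DNAH17 on the opposite strand, had 27 and 18 counts in control and 708 and 924 in UHRF1 KO (log2 fold change 4.84, SE 0.15, edgeR adjusted p = 6.43e-24). PGS1 also overlaps DNAH17 on the opposite strand. The sources used here do not say whether counting used strand, so reads from DNAH17 and from DNAH17-AS1 or PGS1 cannot be told apart where they overlap. LINC02081, upstream of DNAH17, had 4 and 0 counts against 83 and 89 (log2 fold change 5.03). SOCS3, the cytokine signalling inhibitor downstream of DNAH17, had 972 and 984 counts against 8174 and 10307 (log2 fold change 2.91, SE 0.045, edgeR adjusted p = 3.23e-32). The difference was smaller in CYTH1 at 1.26, PGS1 at 0.69 and AFMID at 0.89, and BIRC5, the survivin gene, was at -0.58. Around the 16 members with a call of at least 2-fold in either direction, the nearest tested protein-coding genes on each side were mixed: of 32 distinct neighbours 11 were higher, 5 of them at least 2-fold, 10 were lower and 11 were not called, and their median log2 fold change was -0.01. These 5 were SOCS3 and CYTH1, which flank DNAH17, and KDM6B, C9orf24 and RAPGEF5. C9orf24 and RAPGEF5 had no control library at the low-count filter level and so had to differ to be tested.

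**Figure D3:**
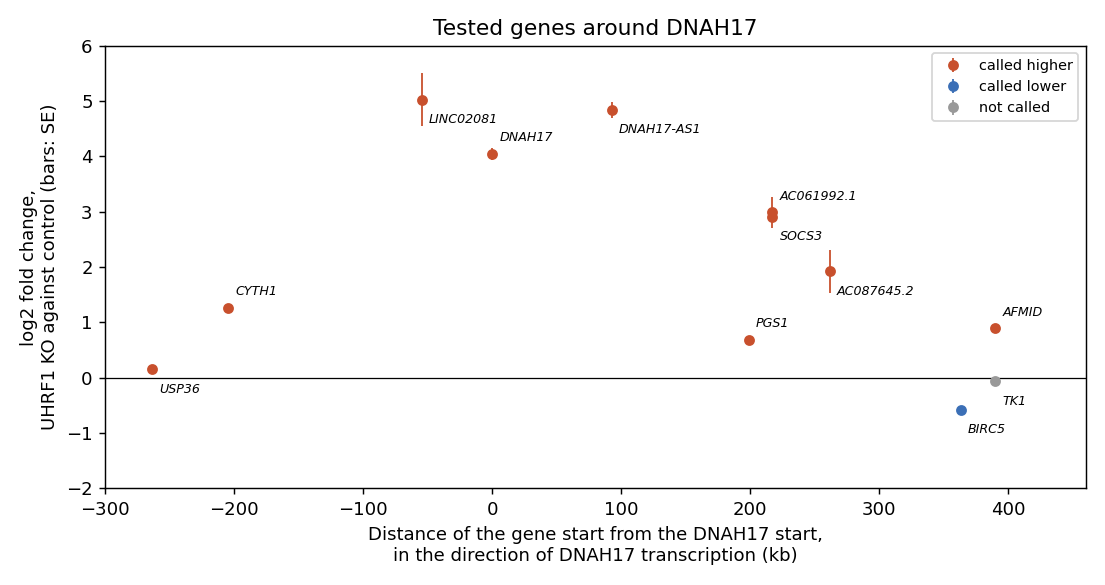
log2 fold change with bars of 1 SE (edgeR, 2 libraries a group) for tested genes near DNAH17, against the distance of each gene's start from the DNAH17 start. LINC02081, DNAH17 and DNAH17-AS1 lie above 4, SOCS3 is at 2.91, and RN7SL236P is left out because both controls had 0 counts.

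Dynein intermediate chains help attach the outer arm to the doublet. DNAI1 (chr9:34457414-34520989), a common primary ciliary dyskinesia gene, had 6 and 5 counts in control and 35 and 28 in UHRF1 KO, without overlap. Its level went from 0.302 ± 0.047 to 1.40 ± 0.40 CPM (SD, n = 2), 4.53-fold higher (log2 fold change 2.18, SE 0.48, edgeR adjusted p = 1.84e-04). DNAI2, its partner, had 1 and 0 counts against 7 and 2 and was not tested.

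Of 12 central pair genes, 4 were tested: CFAP70 and CFAP54 were higher, CFAP46 was lower and CFAP69 was not called. CFAP70 had 10 and 9 counts in control and 35 and 59 in UHRF1 KO, 3.89-fold higher (log2 fold change 1.96, SE 0.39, edgeR adjusted p = 5.59e-05). CFAP54 and CFAP46 belong to the same projection of the central pair. CFAP54 had 12 and 20 counts against 34 and 60, 2.32-fold higher (log2 fold change 1.21, SE 0.35, edgeR adjusted p = 0.00352), a call lost without UHRF1 KO 2 (0.90, adjusted p = 0.109). CFAP46 had 15 and 12 counts against 7 and 6, 2.57-fold lower (log2 fold change -1.36, SE 0.53, edgeR adjusted p = 0.0270). That call was lost without control 1 (-1.16, adjusted p = 0.106), without UHRF1 KO 1 (-1.60, adjusted p = 0.0681) without UHRF1 KO 2 (-1.12, adjusted p = 0.199), in DESeq2 (adjusted p = 0.180) and without the low-count filter (adjusted p = 0.0606). The groups do not overlap in any of these 3 genes. CFAP69 had 51 and 33 counts against 40 and 95, and the UHRF1 KO libraries lay on both sides of the controls (log2 fold change 0.34, edgeR adjusted p = 0.320). It was called higher without control 1 or without UHRF1 KO 1, at 0.72 in both fits.

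The other 8 central pair genes had too few reads to test. CFAP99 had 1 count in each control and 13 and 8 in UHRF1 KO, and CFAP74 had 0 in both controls and 6 and 4 in UHRF1 KO. CFAP99 overlaps RNF4 on the same strand. HYDIN, the giant central pair protein lost in a form of primary ciliary dyskinesia, had 3 and 5 counts against 11 and 11, and reads may be shared with its near-identical copy HYDIN2. SPAG6 with 1 and 0 against 0 and 5 and SPAG17 with 0 and 5 against 4 and 4 overlapped between groups.

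The largest role group, 16 axonemal CFAP genes outside the central pair, had 9 tested members, 6 higher (5 at least 2-fold) and none lower. All of the 9 but CFAP20 lay at or below 5 CPM in control. In that range 43.5% of all genes were higher, 35.9% at least 2-fold, and 6.84% were lower. CFAP58, 1 of the 5, was tested through the UHRF1 KO libraries alone. CFAP45, CFAP52 and CFAP53 encode proteins bound inside the doublet wall. CFAP45 (chr1:159872364-159900163) had 11 and 8 counts in control and 54 and 78 in UHRF1 KO, 5.47-fold higher without overlap (log2 fold change 2.45, SE 0.35, edgeR adjusted p = 2.83e-07). It overlaps SNHG28 on the same strand, which was also higher. CFAP53 had 13 and 5 counts against 16 and 49, with the UHRF1 KO libraries far apart from each other. The fitted 2.81-fold difference (log2 fold change 1.49, SE 0.48, edgeR adjusted p = 0.00842) was not called without control 2 (0.94, adjusted p = 0.0815) or UHRF1 KO 2 (0.63, adjusted p = 0.438), nor by DESeq2 (adjusted p = 0.0800). CFAP52 had 14 and 11 counts against 18 and 10 and its groups overlapped (log2 fold change -0.15, edgeR adjusted p = 0.805).

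CFAP43 and CFAP44 tether the motor heads of inner arm dynein f, the complex that holds DNAH2, and CFAP57 helps place inner arms. CFAP44 had the most counts of these genes, with 74 and 85 in control and 161 and 208 in UHRF1 KO, from 4.36 ± 0.30 to 8.05 ± 0.43 CPM (SD, n = 2). It was 1.85-fold higher (log2 fold change 0.89, SE 0.16, edgeR adjusted p = 1.52e-05). CFAP44 overlaps AC112128.1 on the same strand and BOC and CFAP44-AS1 on the opposite strand, so reads may be shared. CFAP43 had 9 and 10 counts against 28 and 26, 2.26-fold higher (log2 fold change 1.18, SE 0.43, edgeR adjusted p = 0.0176). It lost the call without control 1 (1.13, adjusted p = 0.0522) and without UHRF1 KO 1 (0.99, adjusted p = 0.142), and in DESeq2 (adjusted p = 0.130). CFAP57 had 8 and 16 counts against 41 and 29, 2.34-fold higher (log2 fold change 1.23, SE 0.41, edgeR adjusted p = 0.0103), and it overlaps EBNA1BP2, a gene on the opposite strand that fell. Its call ended without control 1 (0.84, adjusted p = 0.0959), without UHRF1 KO 1 (0.82, adjusted p = 0.197) and in DESeq2 (adjusted p = 0.0822).

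CFAP58, a sperm tail protein, had 4 and 3 counts in control and 13 and 31 in UHRF1 KO. The fitted difference was 4.85-fold (log2 fold change 2.28, SE 0.58, edgeR adjusted p = 0.00106), and the call ended without UHRF1 KO 2 (1.67, adjusted p = 0.0876). CFAP20, at the inner junction of the doublet and also found in primary cilia and centrioles, was the member of highest level, 14.97 RPKM in control. It had 656 and 639 counts against 755 and 919, with the groups overlapping in CPM (log2 fold change 0.04, edgeR adjusted p = 0.609). CFAP157 had 80 and 92 counts against 113 and 153 and was not called (log2 fold change 0.30, edgeR adjusted p = 0.131), except with library totals as the scale (0.41, adjusted p = 0.0421). Of the 7 untested genes of the group, CFAP126 had 0 counts in all 4 libraries, which allows up to 0.0823 CPM over both controls, and CFAP61 had most, 4 and 13 against 4 and 8.

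**Figure D4:**
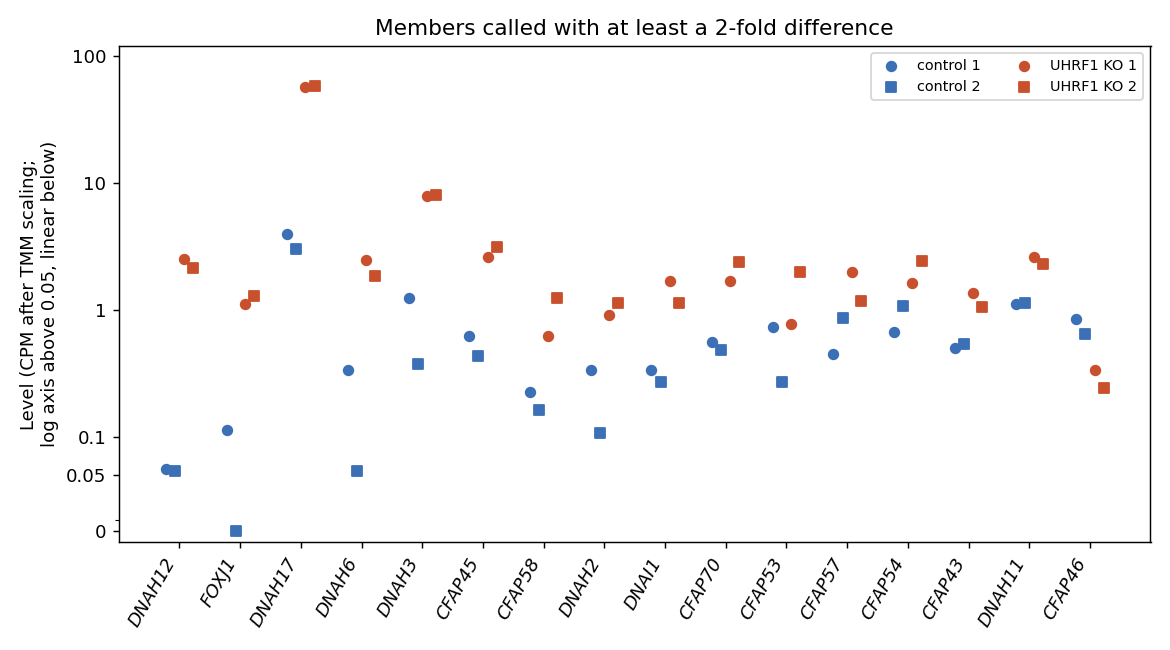
Level in each library of the 16 members called with at least a 2-fold difference, in CPM on an axis that is logarithmic above 0.05 and linear below. Both UHRF1 KO libraries lie above both controls in 15 genes and below them in CFAP46, and CFAP53 has UHRF1 KO libraries far apart.

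Radial spokes carry signals from the central pair to the dynein arms, and 1 of 4 tested spoke genes was higher. RSPH3, a spoke stalk protein that anchors protein kinase A, had 214 and 220 counts in control and 348 and 403 in UHRF1 KO. Its level went from 11.9 ± 0.10 to 16.5 ± 0.40 CPM (SD, n = 2), 1.38-fold higher without overlap (log2 fold change 0.47, SE 0.11, edgeR adjusted p = 2.72e-04). The spoke head genes RSPH1 and RSPH9 were not called: RSPH1 had 14 and 10 counts against 12 and 18 (log2 fold change -0.01, adjusted p = 0.989) and RSPH9 17 and 11 against 18 and 10 (-0.31, adjusted p = 0.588, edgeR). RSPH14 had 12 and 13 counts against 6 and 10 and was not called (log2 fold change -0.96, edgeR adjusted p = 0.106), but was with length and GC trends removed (-1.24, adjusted p = 0.0350) and with recentring also (-1.58, adjusted p = 0.00648). Of the 4 untested spoke genes, RSPH4A had 2 and 1 counts against 18 and 4, so 1 UHRF1 KO library holds most of the reads of this spoke head gene. Without the low-count filter it was called higher (edgeR adjusted p = 0.0213). RSPH10B and RSPH10B2 are near-identical copies whose reads cannot be assigned with certainty.

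None of the 5 tektins, filament proteins inside the doublets that are abundant in sperm tails and airway cilia, reached the filter. TEKT2 had 2 and 3 counts in control and 1 and 6 in UHRF1 KO, TEKT3 had 0 and 5 against 4 and 2 and TEKT5 had 1 and 0 against 3 and 4. TEKT1 and TEKT4 each had a single count in a single library. At these counts no difference was detectable.

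The 3 assembly factors named by the rule act in the cytoplasm to fold and join the arms, and none was higher. CFAP300 had 102 and 129 counts in control and 88 and 121 in UHRF1 KO, from 6.33 ± 0.87 to 4.55 ± 0.44 CPM (SD, n = 2), and was lower (log2 fold change -0.47, SE 0.17, edgeR adjusted p = 0.0185). The call ended without control 2 (adjusted p = 0.196) and without UHRF1 KO 1 (adjusted p = 0.108), in DESeq2 (adjusted p = 0.126), with library totals as the scale (adjusted p = 0.0715) and after length and GC trends were removed (adjusted p = 0.0529). CFAP298 had 172 and 143 counts against 205 and 244 (log2 fold change 0.18, edgeR adjusted p = 0.233). ZMYND10, a cochaperone for dynein heavy chains, had 10 and 11 counts against 6 and 7, lower in both UHRF1 KO libraries but not called (log2 fold change -1.002, SE 0.56, edgeR adjusted p = 0.119). Recentring made it a call (-1.51, adjusted p = 0.0160).

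Of the 4 transcription regulators, FOXJ1 alone was called. FOXJ1 (chr17:76136333-76141299), the forkhead factor required for motile cilia, had 2 and 0 counts in control and 23 and 32 in UHRF1 KO, which is 1.20 ± 0.13 CPM in UHRF1 KO (SD, n = 2). Scaled for depth its counts were 21.9 times higher, with a 95% counting interval of 5.79 to 185.7. The fitted log2 fold change was 4.31 (SE 0.72, edgeR adjusted p = 3.97e-06), 3.35 without control 2, and without control 1 the remaining control had 0 counts. FOXJ1 overlaps RNF157-AS1 on the opposite strand, which had 4 and 7 counts in control and 14 and 9 in UHRF1 KO. MCIDAS, which acts upstream of FOXJ1 in multiciliated cells, had 53 and 63 counts against 69 and 64 with the groups overlapping (log2 fold change -0.12, SE 0.23, edgeR adjusted p = 0.668), and was called lower with recentring (-0.74, adjusted p = 0.00464). RFX2 had 153 and 117 counts against 171 and 214 (log2 fold change 0.18, adjusted p = 0.287) and RFX3 had 166 and 152 against 182 and 257 (0.13, adjusted p = 0.394, edgeR), both overlapping. RFX2 was called higher without control 1 (0.42, adjusted p = 0.0393) and RFX3 with trends removed (0.44, adjusted p = 0.00394). MCIDAS and RFX genes were thus already transcribed in control, at 3.18 ± 0.30 CPM for MCIDAS, 7.43 ± 1.61 for RFX2 and 8.74 ± 0.79 for RFX3 (SD, n = 2), where FOXJ1 was close to 0.

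The remaining 6 CFAP genes have a role outside the axoneme or none assigned here, and 2 of the 3 tested were lower. CFAP36, a partner of the small GTPase ARL3, had 809 and 873 counts in control and 755 and 929 in UHRF1 KO, from 46.1 ± 1.19 to 36.8 ± 0.68 CPM (SD, n = 2; log2 fold change -0.32, SE 0.066, edgeR adjusted p = 7.15e-05). CFAP97 had 1203 and 1400 counts against 1074 and 1315, from 71.3 ± 5.65 to 52.3 ± 0.78 CPM (log2 fold change -0.45, SE 0.059, edgeR adjusted p = 6.12e-08). Both are among the 3 members of highest level per length in control, where 43.0% of all genes above 5 CPM were also lower. CFAP410, a protein at the base of primary cilia, had 49 and 66 counts against 60 and 112 and was not called (log2 fold change 0.24, edgeR adjusted p = 0.364).

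Of the 69 genes, 30 were not tested, and their largest count in any library was 18. They held 79 counts in control and 207 in the more deeply sequenced UHRF1 KO libraries, not scaled for depth. Both UHRF1 KO libraries were above both controls on the CPM scale in 10 of the 30 and below in 2, and the groups overlapped in 18. The like shares over all untested genes were not counted, so these numbers do not set the members apart. Over the whole count table, reads were seen for 24600 and 24504 genes in control and for 28486 and 29341 in UHRF1 KO. Of the 30, 9 had 0 counts in both controls. Without the filter, edgeR also called DNAH8 (adjusted p = 1.33e-04), CFAP99 (adjusted p = 0.0127), RSPH4A (adjusted p = 0.0213) and CFAP74 (adjusted p = 0.0418) higher. The share called among all genes that the filter had removed is not given here.

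Genes that work beside the members but are outside the rule gave a mixed picture. Their counts are to be read beside the 32.0% higher and 30.1% lower over all genes tested. DNALI1, CCDC114, LRGUK, ROPN1L and CCDC39, all called higher, had no control library at the low-count filter level. WDR63, called lower, had no UHRF1 KO library at that level. These genes had to differ to be tested, so the shares are not a like comparison. Of 7 dynein light chain and docking genes tested (of 12), 3 were higher and 1 lower. DNALI1, an inner arm light chain, had 1 and 2 counts in control and 56 and 71 in UHRF1 KO, a depth-scaled count ratio of 33.8 with a 95% counting interval of 11.3 to 165.97 (log2 fold change 4.98, edgeR adjusted p = 4.75e-10). WDR63, an inner arm intermediate chain, had 10 and 19 counts against 6 and 6 (log2 fold change -1.57, edgeR adjusted p = 0.0126), a call lost without control 2 (-1.08, adjusted p = 0.165), without UHRF1 KO 2 (-1.44, adjusted p = 0.0986) and in DESeq2 (adjusted p = 0.119). Of 15 central pair and spoke partners tested (of 20), 5 were higher and 2 lower. WDR66, also called CFAP251, a protein of the spoke bases, had 30 and 28 counts against 1000 and 1164, from 1.59 ± 0.12 to 47.4 ± 0.99 CPM (SD, n = 2; log2 fold change 4.89, edgeR adjusted p = 4.14e-26). SPAG16, a central pair protein, fell by 0.47 on the log2 scale (edgeR adjusted p = 7.00e-04), and was not called with length and GC trends removed (-0.17, adjusted p = 0.1996).

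The nexin-dynein regulatory complex links neighbouring doublets. With the ruler proteins that set the axoneme's repeat it had 4 higher and 2 lower of 9 tested (of 13 in the count table). IQCD had 49 and 49 counts against 258 and 296 (log2 fold change 2.17, edgeR adjusted p = 1.18e-13), and EFCAB2 was lower at -0.66 (edgeR adjusted p = 8.36e-04). Of 10 doublet inner protein genes tested (of 14), 2 were higher, ENKUR most at 1.53 on the log2 scale (edgeR adjusted p = 6.84e-04), and 1 was lower, MNS1 at -0.76 (edgeR adjusted p = 4.45e-05). Among 13 assembly factors and chaperones tested (of 16 in the count table), 3 were higher and 5 lower. DAW1, which carries outer arms into the cilium, had 39 and 42 counts against 189 and 262 (log2 fold change 2.14, edgeR adjusted p = 3.37e-12). RUVBL1, an ATPase with many tasks outside cilia, was lower at -0.69 (edgeR adjusted p = 1.35e-13). Among 13 genes tested (of 19) from a list of multiciliogenesis regulators and deuterosome genes, 2 were higher and 6 lower, none by 2-fold. The 6 were GMNN, TFDP1, RFX7, PLK4, CEP152 and CEP63. All lay above 5 CPM in control, where 43.0% of all genes were lower. GMNC, CDC20B, DEUP1 and FOXN4 were among those with too few counts to test. CCNO, needed for the many centrioles of multiciliated cells, was higher at 0.77 (edgeR adjusted p = 3.13e-05), a call that did not hold when fold changes were recentred (0.086, adjusted p = 0.611), and RFX7 was lower at -0.64 (edgeR adjusted p = 3.85e-11).

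Intraflagellar transport and primary cilium genes, which serve immotile cilia too, lay on the other side. All 54 listed were tested, 4 were higher, 25 were lower and 1 of these was at least 2-fold lower. Their median log2 fold change was -0.21, against 0.02 over all genes tested. DYNC2H1, the heavy chain of the retrograde transport motor and not an arm dynein, had 576 and 616 counts in control and 350 and 384 in UHRF1 KO (log2 fold change -1.02, edgeR adjusted p = 2.56e-12), and BBS4, a BBSome subunit, was higher at 0.39 (edgeR adjusted p = 5.07e-05), though not with recentring. Of the 54 genes, 48 lay above 5 CPM in control, the range in which 43.0% of all genes were lower.

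**Figure D5:**
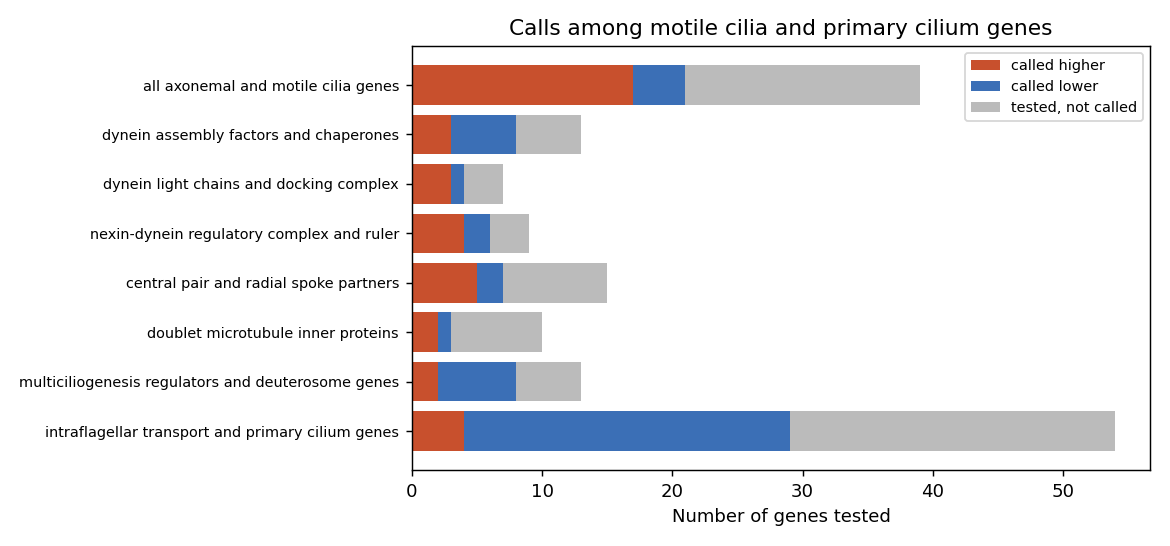
Number of tested genes called higher, called lower or not called (edgeR, adjusted p under 0.05) in the axonemal and motile cilia genes and in lists of related genes outside the rule. The 39 members show 17 higher and 4 lower, and the 54 transport and primary cilium genes show 4 higher and 25 lower.

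Markers of cell types were counted beside these results. Over all genes tested 32.0% were called higher and 30.1% lower, and calls in each list are to be read beside these shares. Of 12 markers of multiciliated airway cells 5 were tested, 4 were higher (TPPP3, CAPS, C9orf24 and CCDC78) and none was lower. C9orf24 had no control library at the low-count filter level, so it had to differ to be tested. All 12 lay at or below 5 CPM in control, where 43.5% of all genes tested were higher and 6.84% lower. The 12 summed to 6.49 and 6.67 CPM in control and 14.2 and 14.4 in UHRF1 KO. Without CCDC78 the other 11 gave 3.695 and 2.744 CPM against 6.643 and 7.189. SNTN and FAM216B, defining markers of multiciliated airway cells, had 0 counts in all 4 libraries. Of 24 testis and spermatid markers 12, among them PRM1, PRM2 and TNP1, had 0 counts throughout, 1 of 6 tested was higher and 2 were lower, and the sums were 80.3 and 81.2 against 74.3 and 75.4 CPM. Without ODF2, which made most of that level, the other 23 summed to 15.8 and 17.3 against 17.7 and 19.4 CPM. Other airway and alveolar markers, 23 in all, summed to 548.7 and 548.9 CPM against 731.5 and 706.4, with 5 of 10 tested higher and 1 lower. The mucin gene MUC5B, at 67.4 CPM in control and 280.0 in UHRF1 KO, turned that sum: the other 22 gave 482.7 and 480.0 CPM against 448.1 and 429.8. Non-epithelial markers, 17 in all, summed to 11.4 and 12.0 CPM against 57.7 and 60.6, with 3 of 6 tested higher, of which PECAM1 had 7 and 2 counts against 607 and 759. PECAM1 too had no control library at the filter level and had to differ to be tested. None of the 17 lay above 5 CPM in control, so the 43.5% higher at low levels is the share to read beside them. Without PECAM1 the other 16 gave 10.97 and 11.89 CPM against 28.45 and 30.12. The 12 epithelial and A549 genes summed to 24034 and 23562 CPM against 12593 and 12531, with 11 lower and EPCAM higher. Of these 12 genes, 11 lay above 5 CPM in control, the range in which 43.0% of all genes were lower. Without ALDH1A1 the other 11 gave 15840 and 15360 CPM against 10110 and 10060. The part of any of these in the values of the cilia genes was not tested.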

How the data were processed

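RNA was taken from 4 A549 libraries, 2 a group. The authors deposited raw counts per gene for 58735 GENCODE 29 identifiers in a single table. GRCh38 and FastQC 0.10.1 are named per the submitters' processing notes, and the sources used here do not give the aligner, the counter or the use of strand. Libraries were made with a SMARTER mRNA kit per the labels' protocols. Control columns were matched to samples by their replicate number, because both control labels carry the same description.

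Of the genes, 24721 had 0 counts in all libraries. From the counts, edgeR 4.0.16 (R 4.3.3) kept 17030 genes (filterByExpr, minimum count 10 and total 15), scaled by TMM and fitted the robust quasi-likelihood model of UHRF1 KO against control over all 4 libraries. Tests were two-sided with Benjamini-Hochberg adjustment over all 17030 genes and a threshold of 0.05. The biological coefficient of variation was 3.16%. With 2 libraries a group the SD rests on 2 values. CPM and RPKM (union exon length) were computed from the scaled counts. SE is the log2 fold change divided by the root of the F statistic. Steps were tested on simulated data. Alternatives used other scalings and filters, a replicate block, each library left out, DESeq2 1.42.0, limma-voom 3.58.1, a stricter threshold of 0.01, and length and GC trends removed with or without recentring.

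The members and gene lists were chosen with earlier results of these data known, and the split at 5 CPM and the neighbour counts after the values were seen. Genes named with values are UHRF1, all members called with at least a 2-fold difference, the 6 members of highest control RPKM, the regulators and, in each list, the called gene with the largest change each way. Other members and genes of lists that are named fall outside that rule and were chosen after their values were seen. Promoter sequences are RefSeq's (GRCh38.p14).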

Additional observations from a re-analysis of the deposited data

How the results depend on the processing

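Under 14 other ways of fitting, between 12 and 19 members were at least 2-fold higher (15 as reported) and between 14 and 21 were called higher (17 as reported). Of the 16 members with a call of at least 2-fold, 10 stayed called in every alternative that tested them, and 9 of these stayed at 2-fold or more, while DNAH11 came to 0.95 on the log2 scale with recentring. Those that lost the call in some alternative are CFAP43, CFAP46, CFAP53, CFAP54, CFAP57 and CFAP58. Members called lower, 4 as reported, were 2 with DESeq2, 2 at an adjusted p under 0.01, 8 with trends removed and recentring, and 2 to 3 with a library left out. At least 2-fold lower, 1 as reported, were 0 without the filter, with 1 CPM in 2 libraries, with DESeq2 and at 0.01, 0 to 1 with a library left out, 2 with length and GC trends removed and 3 with recentring also. Recentring gave 3389 genes higher and 8508 lower over all genes, 28.5% higher among calls against 51.5% as reported, and moved the median of all genes to -0.26 and that of the members to -0.09. Library totals without factors gave 63.4% and a median of 0.13. The cause was not tested.

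With the replicate number as a block, 17 members were higher and 4 lower, 15 and 1 of them at least 2-fold, and over all genes 5280 were higher and 4986 lower. Deviations of same-numbered libraries correlated at -0.01 over 17030 genes, from 2 pairs, so the number is not shown to pair libraries. No blocked fit changed a count by more than 1.5 times.

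Signs turned only in members that were not called. With recentring the log2 fold change was -0.43 for CFAP20, -0.19 for CFAP298, -0.22 for RFX2, -0.19 for CFAP157, -0.25 for DNAH1, -0.15 for DNAH10, -0.099 for DNAH14, -0.090 for DNAH7 and -0.18 for CFAP410. Trends alone gave CFAP20 -0.089. DNAH14 was -0.012 with DESeq2 size factors and -0.020 without the filter, and RSPH1 was 0.015 with upper-quartile factors and 0.099 with library totals. With 1 library left out, the lowest and highest values were -0.0092 and 0.092 for CFAP20, -0.31 and 0.062 for MCIDAS, -0.030 and 0.42 for RFX2, -0.76 and 0.33 for CFAP52, and -0.26 and 0.72 for CFAP69. They were -0.090 and 0.40 for DNAH1, -0.079 and 0.37 for DNAH10, -0.063 and 0.083 for DNAH14, -0.13 and 0.27 for DNAH7, -0.13 and 0.51 for CFAP410, -0.26 and 0.28 for RSPH1 and -0.93 and 0.17 for RSPH9. Leaving out 1 library also ended or made calls at higher counts, as for CFAP300, RFX2 and CFAP69. Depth limits what could be tested: the 30 members left out of the fit had at most 18 counts in a library.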
